A study of Mus musculus with 18 samples.

Results

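Epithelial identity rests on a small number of transcription factors, and 10 genes that encode such factors are described here across the libraries of a mouse study of mutant PIK3CA and mutant p53 in the tongue. The genes are Trp63, Sox2, Tfap2a, Tfap2c, Klf5, Grhl2, Grhl3, Ehf, Elf3 and Ovol1. They were taken by symbol as known regulators, in a choice made with earlier results of these data in view, and all 10 were among the 26143 genes of the deposited table.

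These factors act together in stratified and simple epithelia. The p53 relative p63, encoded by Trp63, keeps the basal layer of squamous epithelium, and SOX2 marks progenitors of the esophagus and tongue. AP-2 and Krüppel-like factors work beside p63 on keratin and adhesion genes, grainyhead-like factors open the enhancers of junction genes, the ETS factors EHF and ELF3 act in epithelial differentiation, and OVOL1 represses genes of the progenitor and mesenchymal states.

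RNA was sequenced from 18 libraries in 4 groups, all described by the labels as squamous epithelium. WT is wild type esophagus (n = 3), and the other groups are tongue. The p53 group is heterozygous for LSL-p53+/R172H (n = 3), E20 carries LSL-PIK3CAH1047R (n = 6), and E20/p53 carries both alleles with K14-Cre (n = 6). LSL is a removable stop element between loxP sites, which blocks expression of the mutant allele in cells without Cre recombinase, and K14-Cre makes the recombinase under the keratin 14 promoter of basal keratinocytes. The labels name Cre for E20/p53 only, so whether the alleles of p53 and E20 were recombined is not known here. They give no age, strain or agent and leave unsaid which samples were tumours, although the series title names the carcinogen 4NQO. WT differs from the other groups in tissue as well as genotype, which cannot be told apart. No label ties a library to an animal or culture of its own, so p-values reflect no more than the spread among these libraries, possibly a technical one.

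Libraries held 14592044 to 18176060 counted reads. Levels are given as CPM, reads per 1000000 of the scaled library total that the deposited values imply, and a gene with 0 reads in 3 libraries allows up to 0.0579 to 0.0677 CPM, the level of 3 reads over the set. Reads of PCR products without molecular identifiers are not independent molecules, so such floors and the intervals below cover counting error only. The libraries fell into 6 sets of 3, which are WT, p53, E20 1 to 3, E20 4 to 6, E20/p53 1 to 3 and E20/p53 4 to 6 by replicate number. The labels do not set replicates 1 to 3 and 4 to 6 of a group apart, so no test was made between them, and results are also given without a set where that ends a call or turns a direction.

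The label of squamous epithelium was checked against 5 basal and 5 suprabasal markers. Krt5, a basal keratin, was high in E20/p53 1 to 3 (127 ± 8.78 CPM, SD, n = 3) and lower in E20 1 to 3 (6.51 ± 1.35 CPM). In WT it stood at 0.0784 ± 0.068 CPM, in p53 at 0.067 ± 0.116 and in E20 4 to 6 at 0.0226 ± 0.0391, and E20/p53 4 to 6 held 0 reads of it. Of the basal markers Krt5 and Krt15 had 0 reads in E20/p53 4 to 6, and Krt15 also had 0 reads in p53. In WT Krt15 stood at 4.99 to 6.96 CPM, Col17a1 at 51.2 to 56.7 CPM and Itgb4 at 18.9 to 20.9 CPM. In E20/p53 1 to 3 Col17a1 stood at 9.98 to 11.2 CPM and Itgb4 at 153 to 160 CPM. Itgb4 held 8.93 to 10.5 CPM in E20 1 to 3 and 6.74 to 7.04 CPM in E20 4 to 6. It held 4.26 to 4.54 CPM in E20/p53 4 to 6 and 0.882 to 1.11 CPM in p53. Col17a1 did not exceed 4.63 CPM in these sets. Krt4, a suprabasal keratin of the esophagus, had 0 reads in WT, in both E20 sets and in E20/p53 4 to 6. Krt13, Krt6a and Sprr3 had 0 reads in E20 4 to 6, and Krt6a and Ivl in E20/p53 4 to 6. WT held Krt13 at 1.44 to 2.48 CPM and Krt6a at 0.172 to 0.559 CPM. It held Ivl at 1.44 to 1.61 CPM and Sprr3 at 1.78 to 1.86 CPM. E20/p53 1 to 3 held Krt6a at 35.9 to 38.8 CPM and Krt13 at 0.224 to 0.562 CPM. There Krt4 did not exceed 0.112 CPM, Ivl 0.0617 CPM and Sprr3 0.185 CPM. Krt13 was higher in p53 (1.32 to 1.54 CPM) and in E20/p53 4 to 6 (0.596 to 1.12 CPM) than in E20/p53 1 to 3. The 10 fibroblast markers summed to 300 to 333 CPM in E20/p53 1 to 3 and 1490 to 1611 CPM in WT, but to 9038 to 9792 CPM in p53, 17766 to 19879 CPM over both E20 sets and 21815 to 23736 CPM in E20/p53 4 to 6. The WT sum came mainly from Col1a2, at 1305 to 1420 CPM. In E20/p53 1 to 3 the largest part was Postn, at 149 to 174 CPM. The label is thus not borne out by its basal keratin markers in p53, E20 4 to 6 and E20/p53 4 to 6, though Itgb4 was present there. Of the suprabasal markers only Krt6a was high in E20/p53 1 to 3. In WT the label is borne out only in part, as Krt5 and Krt4 were at or near 0. WT held Krt14 at 13.4 ± 0.769 CPM beside its Col17a1 and Itgb4, and 6 simple epithelial genes at 274 to 290 CPM in sum. E20 1 to 3 held Krt14 at 66.5 ± 7.29 CPM beside its fibroblast genes. Xist RNA, which coats an inactive X chromosome, had means of 893 CPM in E20 1 to 3 and 1303 CPM in E20 4 to 6, and of 0.826 CPM or less in each other set, and the Y-linked gene Eif2s3y was at 0 in WT and E20 alone. Xist and Eif2s3y thus separated E20 from p53 and E20/p53, and WT, which had little of either, from all 3 mutant groups. Sex and genotype therefore cannot be told apart in these comparisons, which are all but E20/p53 against p53. In bulk RNA, fewer cells of a type and less RNA per cell cannot be told apart.

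Trp63 lies on chromosome 16 at 25683763 to 25892102 (mm10, plus strand), and its TA and ΔN isoforms cannot be told apart in gene counts. It stood at 6.39, 6.09 and 5.77 CPM in WT, 0.937, 0.652 and 1.01 CPM in p53, 15.6, 16.0 and 15.6 CPM in E20 1 to 3 and 3.18, 3.54 and 3.16 CPM in E20 4 to 6. In E20/p53 it stood at 60.6, 67.9 and 62.3 CPM in replicates 1 to 3 and at 3.22, 2.44 and 3.23 CPM in replicates 4 to 6. The highest set, E20/p53 1 to 3, was 4.05 times the next, E20 1 to 3, and p53 was lowest. Of neighbouring sets in this order, E20 4 to 6 and E20/p53 4 to 6 overlapped and the others did not. The E20 and E20/p53 groups overlapped as wholes, since each joins a set with more Trp63 and a set with less.

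Sox2 lies on chromosome 3 at 34650405 to 34652461 (plus strand), inside the long noncoding gene Sox2ot on the same strand, so a share of its reads could belong to Sox2ot, which held 193 reads over all libraries. Sox2 was highest in E20/p53 1 to 3, at 52.4, 54.6 and 54.2 CPM, followed by WT at 35.4, 37.4 and 38.1 CPM. In E20 1 to 3 it was at 1.36, 2.45 and 1.77 CPM, and each p53 library held 1 read (0.067, 0.0652 and 0.063 CPM). The 6 libraries of E20 4 to 6 and E20/p53 4 to 6 held 0 reads. Sox2 was thus plentiful in 2 sets, low in E20 1 to 3 and at or near 0 in 3 sets, and the sets with reads did not overlap. The level in E20/p53 1 to 3 was 1.45 times that in WT.

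Tfap2a, on chromosome 13 at 40715302 to 40738376 (minus strand), encodes AP-2 alpha. It stood at 64.7, 74.0 and 66.4 CPM in WT, 0.402, 0.261 and 0.378 CPM in p53, and 3.54, 3.51 and 2.99 CPM in E20 1 to 3. In E20 4 to 6 it stood at 2.1, 2.74 and 1.65 CPM, in E20/p53 1 to 3 at 87.0, 87.3 and 86.2 CPM and in E20/p53 4 to 6 at 6.31, 5.34 and 5.66 CPM. WT and E20/p53 1 to 3 were again the high sets, and no neighbouring sets overlapped. The lowest E20/p53 library (5.34 CPM) lay above the highest E20 library (3.54 CPM), and the lowest E20 library (1.65 CPM) above the highest p53 library (0.402 CPM).

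Tfap2c, on chromosome 2 at 172549593 to 172558622 (plus strand), encodes the related factor AP-2 gamma. It was highest in E20 4 to 6, at 30.3, 33.4 and 34.1 CPM, followed by E20 1 to 3 at 9.75, 8.24 and 8.17 CPM and p53 at 3.62, 3.45 and 3.53 CPM. In E20/p53 it stood at 0.617, 0.897 and 1.01 CPM in replicates 1 to 3 and at 1.13, 1.19 and 1.12 CPM in replicates 4 to 6, and WT held 1 read in 1 of 3 libraries. This order ran against that of Tfap2a, with WT lowest and the E20 sets highest, and no neighbouring sets overlapped. Per kilobase of exon, Tfap2a made up 99.9% to 100% of the summed level of both genes in the WT libraries and 98.5% to 99.1% in E20/p53 1 to 3. Its share was 77.1% to 80.7% in E20/p53 4 to 6, 21.4% to 24.2% in E20 1 to 3, 5.36% to 7.7% in p53 and 3.5% to 5.8% in E20 4 to 6. Across the 18 libraries Pearson's r of the log2 values was -0.70 between Tfap2a and Tfap2c and 0.84 between Tfap2a and Sox2. Over the 6 set means these were -0.71 and 0.84, and since the libraries of a set are alike these values describe 6 sets more than 18 libraries.

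Sox2 and Tfap2a shared their 2 high sets, so the 250 bases before a transcript start of each are shown, from RefSeq on GRCm38.p6, written 5′ to 3′ along the gene. Windows were given for 4 of the 10 genes (Sox2, Tfap2a, Elf3 and Grhl3). Capitals mark matches on either strand to 6 letter motifs, which were GCCNNNGGC for AP-2, AACNNGTT for grainyhead, AGGAAG for ETS, GGGCGG for Krüppel-like and SP factors, ACAAAG for SOX and CACCTG for the E-box that ZEB and SNAI factors bind. The Sox2 window is chr3:34649745-34649994 on the plus strand, and the Tfap2a window is chr13:40734921-40735170 on the minus strand, before the more upstream of 2 listed starts.
Sox2: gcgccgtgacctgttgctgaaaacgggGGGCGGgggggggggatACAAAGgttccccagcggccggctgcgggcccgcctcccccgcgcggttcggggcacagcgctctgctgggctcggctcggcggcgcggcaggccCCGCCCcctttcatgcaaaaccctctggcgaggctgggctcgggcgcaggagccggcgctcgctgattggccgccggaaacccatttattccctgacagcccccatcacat
Tfap2a: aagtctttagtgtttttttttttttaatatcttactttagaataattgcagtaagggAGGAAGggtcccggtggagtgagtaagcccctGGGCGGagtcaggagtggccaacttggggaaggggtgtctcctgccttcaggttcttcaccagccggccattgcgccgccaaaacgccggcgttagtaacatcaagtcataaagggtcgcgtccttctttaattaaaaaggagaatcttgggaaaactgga
The Sox2 window held 2 matches to GGGCGG, at -223 and -111 counted in bases from the start, and 1 to ACAAAG, at -206, and none of these overlapped. The Tfap2a window held 1 match to AGGAAG, at -193, and 1 to GGGCGG, at -161. Of all 32851 windows of this length, 32.7% held GGGCGG, 29.5% AGGAAG, 16.5% ACAAAG, 17.2% CACCTG, 13.7% GCCNNNGGC and 3.64% AACNNGTT. The GC content was 72% for the Sox2 window and 47.6% for the Tfap2a window shown, against a median of 52.4% over all windows. The window of the other Tfap2a start had 60.4% GC, with 1 match to AGGAAG at -77 and 1 to GGGCGG at -13. A match describes letters and is not a bound site.

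Klf5, on chromosome 14 at 99298691 to 99315036 (plus strand), encodes a Krüppel-like factor of basal and progenitor cells. It stood at 56.9, 63.0 and 60.3 CPM in WT, 15.8, 12.2 and 15.8 CPM in p53, 6.54, 7.19 and 7.21 CPM in E20 1 to 3 and 4.26, 5.61 and 5.63 CPM in E20 4 to 6. In E20/p53 it stood at 32.1, 33.8 and 29.9 CPM in replicates 1 to 3 and at 7.09, 5.85 and 5.13 CPM in replicates 4 to 6. Klf5 was present in every library. Its sets WT, E20/p53 1 to 3 and p53 were apart from each other and above the rest, while the lowest 3 sets overlapped their neighbours.

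Ehf and Elf3 encode ETS factors of epithelial cells. Ehf, on chromosome 2 at 103263433 to 103303278 (minus strand), was highest in WT, at 44.9, 55.1 and 45.5 CPM, followed by E20/p53 1 to 3 at 12.1, 15 and 13.4 CPM, E20 4 to 6 at 11.8, 11.5 and 10.7 CPM and E20 1 to 3 at 7.29, 7.65 and 7.83 CPM. In E20/p53 4 to 6 it stood at 0.655, 0.284 and 0.592 CPM and in p53 at 0, 0.326 and 0.126 CPM, and these 2 sets overlapped. Ehf thus stayed at 7 CPM or more in both E20 sets, where Sox2 and Tfap2a were low. Elf3, on chromosome 1 at 135253575 to 135258568 (minus strand), was plentiful in WT, at 11.4, 12.0 and 12.2 CPM. Elsewhere it did not exceed 0.341 CPM, with 5 reads over p53, 15 over E20, 4 over E20/p53 1 to 3 and 0 over E20/p53 4 to 6. WT stood 41.6 times above the next set, and the other sets overlapped their neighbours.

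Grhl2 and Grhl3, the grainyhead-like genes, and Ovol1, the repressor, were low throughout. Grhl2, on chromosome 15 at 37233036 to 37363569 (plus strand), held 25 reads over WT (10, 4 and 11), 8 over p53, 8 over E20 1 to 3, 0 over E20 4 to 6, 7 over E20/p53 1 to 3 and 12 over E20/p53 4 to 6. Grhl3, on chromosome 4 at 135541888 to 135573630 (minus strand), held 0 reads over WT and E20 4 to 6, 5 over p53, 11 over E20 1 to 3, 5 over E20/p53 4 to 6 and 29 over E20/p53 1 to 3 (10, 9 and 10). Neither gene reached the level for a test, which was 0.635 CPM (10 reads at the median depth) in at least 3 libraries, so differences of these genes were not testable at this depth. Over the groups, Grhl3 was at least 5.6-fold higher in E20/p53 than in WT, against a floor of 3 reads over the WT group, but 29 of its 34 reads came from replicates 1 to 3. Taken by set the bound was 9.35-fold for E20/p53 1 to 3 and 1.69-fold for E20/p53 4 to 6. Ovol1, on chromosome 19 at 5549136 to 5560646 (minus strand), had the flattest pattern. It stood at 0.931, 1.49 and 1.02 CPM in WT and between 0.261 and 1.07 CPM in the other libraries, and all neighbouring sets overlapped.

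**Figure D1:**
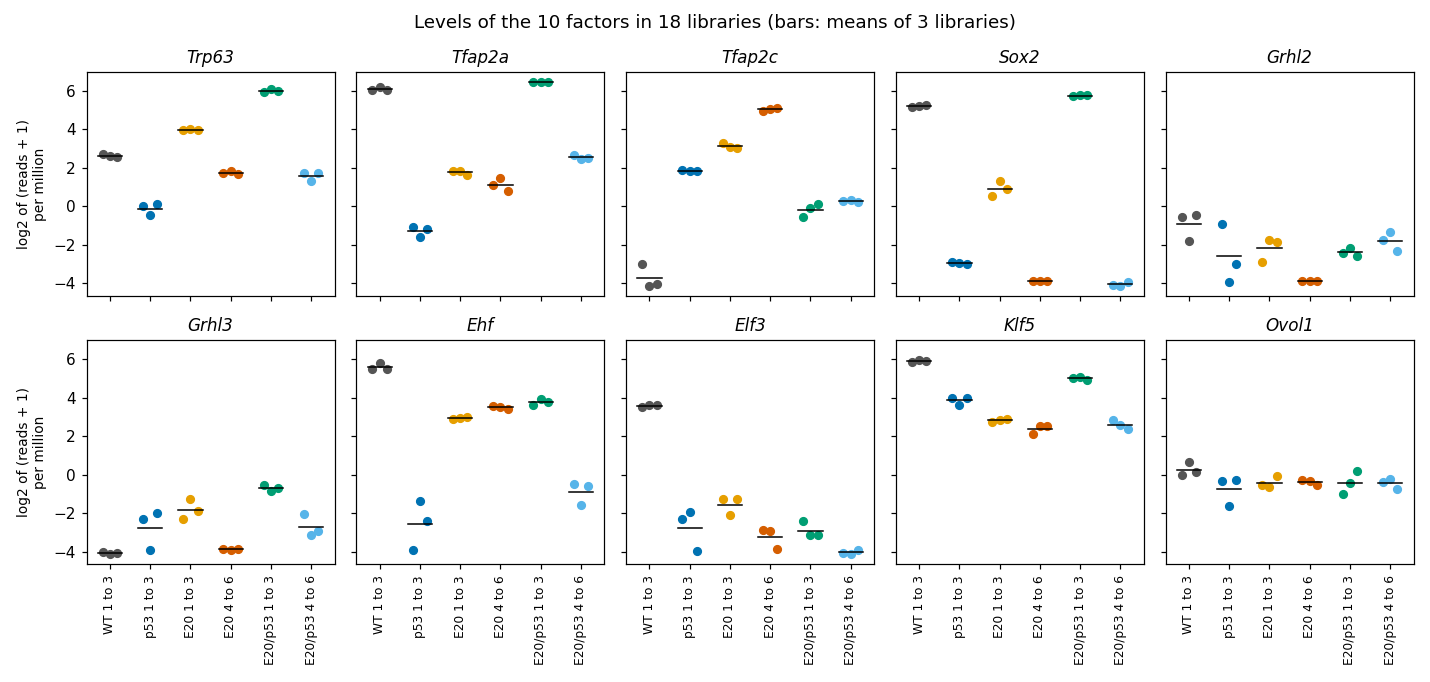
Level of each of the 10 genes in every library, as log2 CPM with 1 read added, in 6 sets of 3 libraries; bars are means of 3. Tfap2a and Sox2 are high in WT and E20/p53 1 to 3, Tfap2c is high in the E20 sets, Elf3 is high in WT, and Ovol1 is flat.

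Set side by side per kilobase of exon, which allows genes to be compared, the 10 genes summed to 58.6 CPM per kilobase in WT and 60.7 in E20/p53 1 to 3. The sums were 12.9 in E20 4 to 6, 8.96 in E20 1 to 3, 4.27 in p53 and 3.35 in E20/p53 4 to 6. Sox2 led in WT with 30.7% of the sum and in E20/p53 1 to 3 with 43.1%, followed in both by Tfap2a with 23.8% and 29.2%. Behind them WT held Klf5 (19.7%), Ehf (14.8%) and Elf3 (9.14%), while E20/p53 1 to 3 held Trp63 (12.5%), Klf5 (10.1%) and Ehf (3.99%). Tfap2c led in both E20 sets, with 26.4% in replicates 1 to 3, where Trp63 followed with 20.9%, and 68.4% in replicates 4 to 6, where Ehf followed with 15.8%. Klf5 made up 65.6% in p53, and in E20/p53 4 to 6 Tfap2a and Klf5 took 35.1% and 34.6%. WT and E20/p53 1 to 3 thus held like totals with a different makeup.

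**Figure D2:**
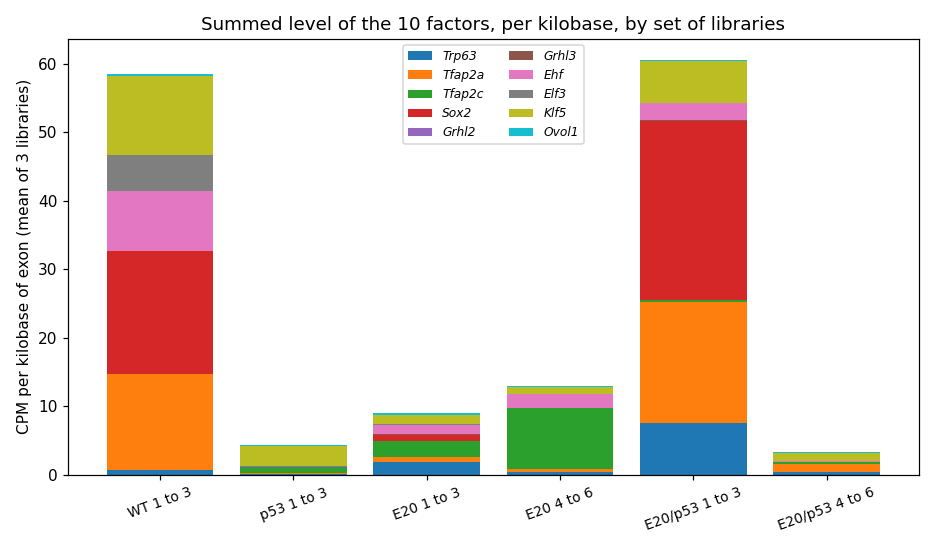
Summed level of the 10 genes in CPM per kilobase of exon, as the mean of each set of 3 libraries, with 1 colour for each gene. The WT and E20/p53 1 to 3 bars reach 58.6 and 60.7, and Tfap2c fills most of the E20 4 to 6 bar.

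The comparison of E20/p53 with E20 asks what the mutant p53 allele adds to mutant PIK3CA, with Cre named for the first group only. Tfap2a rose and Tfap2c fell, each without overlap between the groups. Tfap2a stood at 46.3 ± 44.4 against 2.75 ± 0.762 CPM (SD, n = 6 and 6), a log2 difference of 3.04 (SE 0.71, adjusted p = 0.00257). Tfap2c stood at 0.995 ± 0.213 against 20.7 ± 13.1 CPM, a log2 difference of -4.03 (SE 0.39, adjusted p = 6.4e-07). Adjusted p-values here and below are from limma over 15206 tested genes, and under 0.05 a gene was called. Both calls held with any 1 of the 4 sets left out, with log2 1.09 to 4.99 for Tfap2a and -4.98 to -3.08 for Tfap2c. The smallest of these for Tfap2a came without E20/p53 1 to 3 (adjusted p = 8.8e-04), and the largest without E20/p53 4 to 6 (adjusted p = 1.2e-10).

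Klf5 rose too, with a log2 difference of 1.20 (SE 0.44, adjusted p = 0.0377) and overlap between the groups. That call was lost in limma without E20 replicate 1, 4, 5 or 6 (adjusted p = 0.0518, 0.076, 0.062 and 0.0619) and likewise without E20/p53 replicate 1, 2 or 3 (adjusted p = 0.0909, 0.0905 and 0.0898). Without E20/p53 1 to 3 the log2 difference of Klf5 was -0.00, without either E20 set it was 1.42 and 0.98 with no call, and without E20/p53 4 to 6 it was 2.40 (adjusted p = 5.6e-09). Trp63 (log2 0.92, adjusted p = 0.416), Sox2 (2.34, adjusted p = 0.343), Ehf (-1.79, adjusted p = 0.111), Elf3 (-1.09, adjusted p = 0.0784) and Ovol1 (-0.04, adjusted p = 0.916) were not called in limma. For Trp63, Sox2 and Ehf the sign of the difference changed with the E20/p53 set left out. Without E20/p53 4 to 6, Trp63 (log2 3.13, adjusted p = 1.6e-04) and Sox2 (7.24, adjusted p = 7.3e-05) were higher in E20/p53, and without E20/p53 1 to 3 their log2 differences were -1.28 and -2.56, not called. Ehf was lower without E20/p53 1 to 3 (log2 -4.11, adjusted p = 2.3e-06) and not called without E20/p53 4 to 6 (0.53). Elf3 was called lower without E20 4 to 6 (log2 -1.92, adjusted p = 0.00664) or without E20/p53 1 to 3 (-1.66, adjusted p = 0.0231), and also without E20 replicate 6 (-1.39, adjusted p = 0.0252) or E20/p53 replicate 1 (-1.30, adjusted p = 0.0466). These Elf3 calls rest on few reads, 13 in E20 1 to 3 and 2 in E20 4 to 6. E20/p53 held 4, all in replicates 1 to 3, and Elf3 passed the filter through WT, outside this comparison. Ehf was called lower without E20/p53 replicate 2 (log2 -2.28, adjusted p = 0.0437) or replicate 3 (-2.25, adjusted p just under 0.05).

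Of the 10 genes 8 were tested, 2 were called higher and 1 lower, where 42.7% of all tested genes were called (23.0% higher and 19.7% lower), so the share of the 8 is near that of all genes. The same holds for the 2 genes without overlap, 1 in each direction, beside 22.5% of all tested genes (11.3% in each direction). The median log2 difference was 0.44 over the 8 genes and 0.05 over all tested genes.

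**Figure D3:**
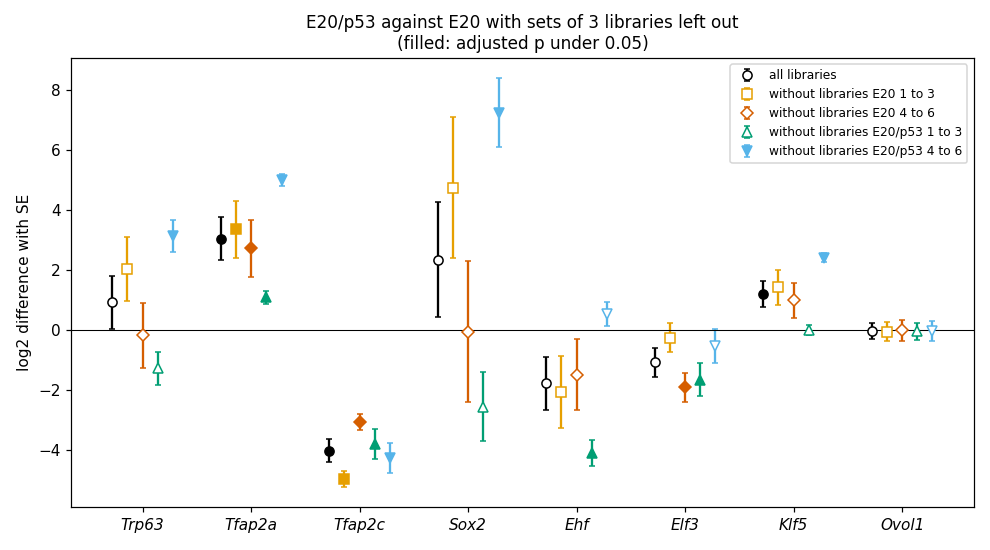
Log2 difference of E20/p53 against E20 for the 8 tested genes, with its SE, over all libraries and with each set of 3 left out in turn; filled symbols have an adjusted p under 0.05. Tfap2a stays above 0 and Tfap2c below 0 in every fit shown, while Trp63, Sox2, Ehf and Klf5 move from one side of 0 to the other or onto it.

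E20/p53 against p53 asks what the PIK3CA allele adds to the mutant p53 allele, again with Cre named for the first group only. Trp63, Tfap2a and Ehf rose, and Tfap2c fell. Tfap2a stood at 46.3 ± 44.4 against 0.347 ± 0.0756 CPM (SD, n = 6 and 3), a log2 difference of 5.79 (SE 0.86, adjusted p = 1.6e-04). Trp63 stood at 33.3 ± 33.3 against 0.866 ± 0.189 CPM, with log2 3.91 (SE 1.07, adjusted p = 0.0139). Ehf, with overlap, stood at 7.01 ± 7.18 against 0.151 ± 0.164 CPM, with log2 3.99 (SE 1.07, adjusted p = 0.0125). Tfap2c stood at 0.995 ± 0.213 against 3.53 ± 0.0813 CPM, with log2 -1.80 (SE 0.47, adjusted p = 0.0113).

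In this comparison the calls of Trp63 and Ehf were the less stable. Trp63 lost its call without p53 replicate 2 (log2 3.73, adjusted p = 0.0606) and without E20/p53 1 to 3 (1.71, adjusted p = 0.0504), and Ehf without p53 replicate 1 (3.32, adjusted p = 0.0801), all in limma. With only these 2 groups in the fit, neither was called (adjusted p = 0.0687 and 0.0902). Tfap2a kept its call without either E20/p53 set, with log2 3.84 and 7.74, and Tfap2c kept it with log2 -1.57 and -2.03. Sox2 was not called (log2 3.80, SE 2.35, adjusted p = 0.243). Its E20/p53 sets lay far apart, at 52.4 to 54.6 CPM in replicates 1 to 3 and 0 reads in replicates 4 to 6. With 1 read in each library, p53 was at the floor of 3 reads over a set and cannot be told from 0. Over the groups, 2789 reads against 3 gave a Sox2 ratio of 423 (95% exact interval 145 to 2052, for counting error), all of it from E20/p53 1 to 3. Klf5 (log2 -0.07, adjusted p = 0.938) was above p53 without E20/p53 4 to 6 (1.14, adjusted p = 5.3e-05) and below it without E20/p53 1 to 3 (-1.27, adjusted p = 1.3e-04). Elf3 (log2 -0.73, adjusted p = 0.373) and Ovol1 (0.30, adjusted p = 0.517) were not called. In all, 3 of the 8 tested genes were called higher and 1 lower, where 25.8% of all tested genes were called, 12.9% in each direction. Without overlap, 2 lay higher and 1 lower, where 32.5% of all genes did, 15.9% higher and 16.6% lower. The median log2 difference was 2.05, against 0.02 over all tested genes.

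E20 against p53 sets the single alleles side by side. Ehf, Tfap2c, Trp63 and Tfap2a rose, each without overlap. Ehf stood at 9.48 ± 2.11 against 0.151 ± 0.164 CPM (SD, n = 6 and 3), log2 5.78 (SE 1.07, adjusted p = 6.6e-04). Tfap2c stood at 20.7 ± 13.1 against 3.53 ± 0.0813 CPM, with log2 2.23 (SE 0.47, adjusted p = 0.00194). Without either E20 set Ehf had a log2 difference of 6.07 and 5.49 and Tfap2c of 3.18 and 1.28, still called. Trp63 (9.5 ± 6.81 against 0.866 ± 0.189 CPM, with log2 2.99, SE 1.07, adjusted p = 0.0438) and Tfap2a (2.75 ± 0.762 against 0.347 ± 0.0756 CPM, with log2 2.74, SE 0.86, adjusted p = 0.0235) were closer to the threshold.

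Leaving out p53 replicate 1, 2 or 3 ended the calls of both, with adjusted p = 0.103, 0.131 and 0.0977 for Trp63 and 0.0602, 0.0859 and 0.0642 for Tfap2a in limma. Trp63 also lost its call without E20 replicate 1, 2 or 3 (adjusted p = 0.0735, 0.0734 and 0.0738) and without WT replicate 1, 2 or 3 (adjusted p = 0.0548, 0.0547 and 0.0549), and Tfap2a without either E20 set (adjusted p = 0.0965 and 0.0514). Without the whole set E20 1 to 3 the log2 difference of Trp63 was 1.87 (adjusted p = 0.252), and without E20 4 to 6 it was 4.10 and called (adjusted p = 0.0237). Klf5 was lower in every E20 library than in any p53 library, with log2 -1.27 (SE 0.54, adjusted p = 0.0865). It was called without E20/p53 1 to 3 (adjusted p = 2.0e-05) or E20/p53 4 to 6 (adjusted p = 9.0e-06), neither of them in this comparison, as the fit shares 1 estimate of spread over all groups. Sox2 (log2 1.45, adjusted p = 0.684), Elf3 (0.36, adjusted p = 0.688) and Ovol1 (0.34, adjusted p = 0.464) were not called. The 4 of 8 called, all higher, stand beside 31.0% of all tested genes (14.5% higher and 16.5% lower). The 5 without overlap, 4 of them higher, stand beside 45.6% of all (21.8% higher and 23.8% lower). The median log2 difference was 1.84 over the 8 genes and -0.01 over all.

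The 3 comparisons with WT share the WT libraries, and each joins tissue with genotype. Against WT, p53 had 1 gene higher and 6 lower of the 8 tested, E20 1 higher and 4 lower, and E20/p53 1 higher and 3 lower. Of all tested genes 54.2% were called in p53 (29.3% higher and 24.8% lower), 55.2% in E20 (29.0% and 26.2%) and 48.1% in E20/p53 (26.6% and 21.5%). Without overlap lay 8, 7 and 4 of the 8 genes, 1 of them higher each time. Of all tested genes this held for 82.1% in p53 (43.3% higher and 38.8% lower), 64.2% in E20 (33.8% and 30.4%) and 50.5% in E20/p53 (26.8% and 23.7%), so a large share of all genes differed from WT as well. The median log2 differences were -4.53, -2.84 and -1.86, against 0.04, 0.04 and 0.05 over all tested genes. Elf3 passed the filter through its WT libraries alone, so its difference from WT was fixed by that choice. It is 1 of the lower genes in each of these counts, with and without overlap, and enters each median.

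Tfap2c was the gene called higher, with a log2 difference of 5.58 in p53 (SE 0.55, adjusted p = 4.8e-07), 7.81 in E20 (SE 0.47, adjusted p = 1.1e-09) and 3.78 in E20/p53 (SE 0.47, adjusted p = 6.4e-06). With 1 read in WT, the ratios of its levels were 177 (95% exact interval 31.3 to 7036), 1020 (183 to 40321) and 49.9 (8.76 to 1991), for counting error. Elf3 had log2 differences of -6.33, -5.97 and -7.06 in the same order, given for size only, as the filter fixed their direction. Klf5 had -2.05 (SE 0.62, adjusted p = 0.0114), -3.31 (SE 0.54, adjusted p = 7.8e-05) and -2.11 (SE 0.54, adjusted p = 0.00416). Without E20/p53 4 to 6 the last value was -0.91, and without E20/p53 1 to 3 it was -3.32, both called.

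Tfap2a was lower in p53 (log2 -7.39, SE 1.00, adjusted p = 1.5e-05) and E20 (-4.65, SE 0.86, adjusted p = 2.6e-04) and was not called in E20/p53 (-1.60, adjusted p = 0.137). Without E20/p53 1 to 3 that last difference was -3.55 and called, and without E20/p53 4 to 6 it was 0.35 and not called. Sox2 was lower in p53 (log2 -8.15, SE 2.72, adjusted p = 0.0187), where its level was lower by a ratio of 569 (95% exact interval 194 to 2763, from 3 reads in p53). In E20 Sox2 was lower as well (log2 -6.70, SE 2.35, adjusted p = 0.0236), a call lost without WT replicate 1, 2 or 3 (adjusted p = 0.061, 0.0624 and 0.0626) and without E20 4 to 6 (log2 -4.30, adjusted p = 0.197). In E20/p53 Sox2 was not called (log2 -4.36, adjusted p = 0.138), with -9.25 without replicates 1 to 3 and 0.54 without replicates 4 to 6.

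Ehf was lower in p53 (log2 -8.15, SE 1.24, adjusted p = 4.8e-05) and E20/p53 (-4.16, SE 1.07, adjusted p = 0.0044), and was below WT in every E20 library without a call (-2.37, adjusted p = 0.0712). In E20 it was called without E20/p53 replicate 5 (adjusted p = 0.0406), without E20/p53 1 to 3 (adjusted p = 1.8e-04), without E20/p53 4 to 6 (adjusted p = 8.8e-05) and with WT and E20 alone in the fit (adjusted p = 4.4e-06). In E20/p53 the log2 difference of Ehf was -6.48 without replicates 1 to 3 and -1.84 without replicates 4 to 6. Trp63 was not called against WT in p53 (log2 -2.74, adjusted p = 0.0714), E20 (0.24, adjusted p = 0.861) or E20/p53 (1.17, adjusted p = 0.388). In p53 it was called without E20/p53 1 to 3 (adjusted p = 0.00153) or 4 to 6 (adjusted p = 0.00141) and with these 2 groups alone (adjusted p = 5.8e-08), and in E20/p53 without replicates 4 to 6 (log2 3.37, adjusted p = 3.5e-04). Ovol1 was lower in p53 (log2 -0.99, SE 0.37, adjusted p = 0.0342), a call lost without WT replicate 2 or 3 (adjusted p = 0.132 and 0.0564) or p53 replicate 2 (log2 -0.55, adjusted p = 0.211). It was not called in E20 (log2 -0.65, adjusted p = 0.0975) or E20/p53 (-0.69, adjusted p = 0.0875), where it was called without p53 replicate 2 (log2 -0.69, adjusted p = 0.0467) or E20/p53 replicate 3 (-0.81, adjusted p = 0.0457).

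**Figure D4:**
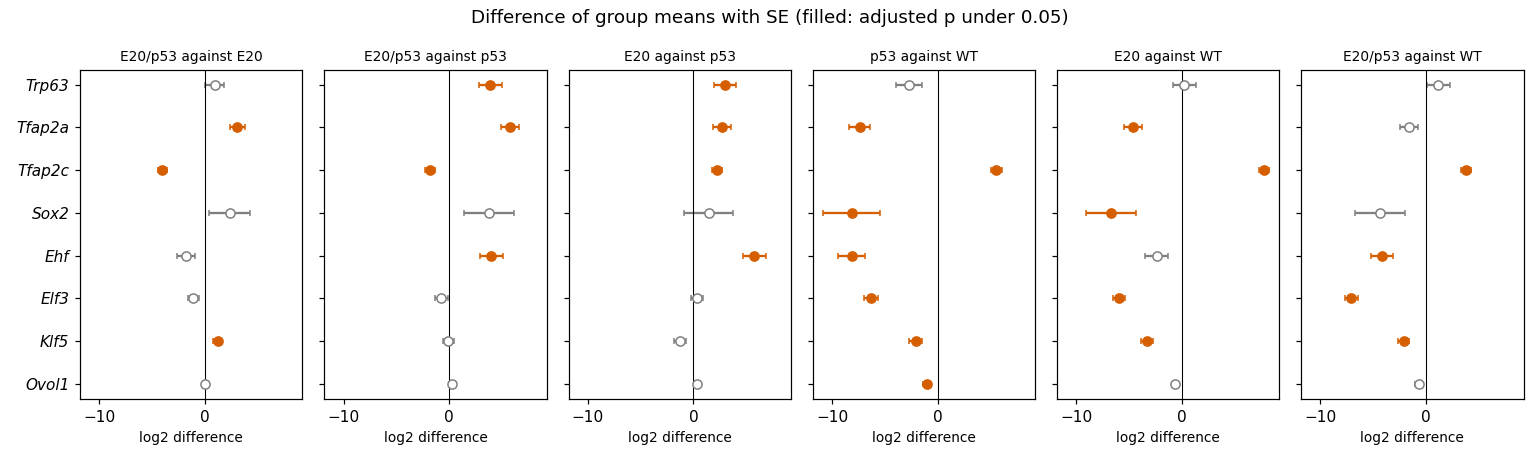
Log2 difference of group means with its SE for the 8 tested genes in each of the 6 comparisons, the first group against the second; filled points have an adjusted p under 0.05. Tfap2c is below 0 where E20/p53 is compared with the other mutants and above 0 in each comparison with WT. The differences of Elf3 from WT were fixed by the filter.

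Other regulators of epithelial fate are 22 genes, of which 13 were tested. In E20/p53 against E20, 3 were higher and 2 lower, a share no larger than the 42.7% of all tested genes, with a median log2 difference of 1.47. Klf4, a Krüppel-like factor of differentiating layers, was lower (44.1 ± 18.5 against 111 ± 16.3 CPM, with log2 -1.43, adjusted p = 7.4e-05), and this call held with any 1 of the 4 sets left out (log2 -2.01 to -0.85). Barx2 (log2 2.87, adjusted p = 0.0138) and the splicing factor gene Esrp2 (2.57, adjusted p = 0.0263) were higher with overlap, and Gata3 was lower with overlap (-1.16, adjusted p = 0.028). These rested on E20/p53 1 to 3, where Barx2 stood at 3.71 to 4.5 CPM against 0.0596 to 0.341 CPM in E20/p53 4 to 6, and Gata3 at 1.06 to 1.48 CPM against 5.13 to 6.13 CPM. Without E20/p53 1 to 3 the log2 differences were 0.73 for Barx2, 0.37 for Esrp2 and -0.08 for Gata3, none called (adjusted p = 0.296, 0.592 and 0.642). They were also not called without E20 4 to 6 (adjusted p = 0.174, 0.165 and 0.158), nor Gata3 without E20 1 to 3 (adjusted p = 0.0619).

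Against p53, E20/p53 had 1 of the 13 higher (Hopx) and 1 lower (Gata3), where 25.8% of all tested genes were called. Without E20/p53 1 to 3 neither was called (adjusted p = 0.189 and 0.085). Hopx was also not called without E20 1 to 3 or without E20 4 to 6, which are outside this comparison but share its estimate of spread. E20 had 2 higher (Klf4 and Hopx) and 2 lower (Foxn1 and Dlx3), where 31.0% of all tested genes were called, and these 4 were called without either E20 set as well.

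The 30 epithelial effector genes encode basal keratins, junction and hemidesmosome proteins, and their sum was highest in E20/p53 1 to 3 (2841 to 2843 CPM) and in WT (1149 to 1186 CPM). They summed to 285 to 303 CPM in E20 1 to 3 and to 92.4 to 139 CPM in the other 3 sets, where between 3 and 8 of the 30 genes were at 0. Single genes departed from the order of the sums, since the basal keratins Krt5 and Krt14 were higher in E20 1 to 3 (means of 6.51 and 66.5 CPM) than in WT (0.0784 and 13.4 CPM). Cdh1, which encodes E-cadherin, had 0 reads in E20 4 to 6, and Epcam had 0 reads there and in E20/p53 4 to 6. Of the 25 tested, E20/p53 had 5 higher and 1 lower against E20, fewer in share than the 42.7% of all tested genes. Without E20/p53 4 to 6 it had 22 higher and 1 lower, with 65.0% of all genes called, and without E20/p53 1 to 3 it had 2 higher and 7 lower. Without E20 4 to 6 it had 1 higher and 1 lower, and without E20 1 to 3 it had 10 higher and 1 lower.

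Cdh1 was higher in E20/p53 than in E20 with overlap (1.05 ± 1.04 against 0.0665 ± 0.106 CPM, with log2 2.53, adjusted p = 0.00922). It was not called without E20/p53 1 to 3 (log2 0.88, adjusted p = 0.183) or without E20 4 to 6 (1.84, adjusted p = 0.127). The laminin gene Lamb3 was lower (log2 -0.62, adjusted p = 0.00298) and was called with any 1 of the 4 sets left out. Krt5 (log2 1.90, adjusted p = 0.523) and Krt14 (2.22, adjusted p = 0.508) were not called there.

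The 20 squamous differentiation genes summed to 428 to 452 CPM in E20/p53 1 to 3, 90.9 to 98.7 CPM in E20 1 to 3 and 66.2 to 72.4 CPM in WT. In the other sets they summed to 8.38 to 25.9 CPM, and 11 of the 20 were at 0 in E20 4 to 6. Of the 13 tested, 3 were called in E20/p53 against E20, all higher, which is near the 23.0% of all tested genes called higher. Periplakin (Ppl) had log2 3.67 (adjusted p = 0.00449), and 2.72 without a call when E20 4 to 6 was left out (adjusted p = 0.0837). Krt13 had log2 1.93 (adjusted p = 0.0109), and was not called without E20 4 to 6 (0.61, adjusted p = 0.25) or without E20/p53 4 to 6 (1.44, adjusted p = 0.0836). Krt10 had log2 0.48 (adjusted p = 0.0182), and was not called without E20 4 to 6 or without E20/p53 1 to 3 (adjusted p = 0.256 each). Without E20 4 to 6, 3 of the 13 were called lower. The 6 simple epithelial genes, such as Krt8 and Krt18, summed to 274 to 290 CPM in WT, the set with Elf3, and to 9.69 CPM or less in every other library.

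Repressors of epithelial genes were present in every set. The 6 genes (Zeb1, Zeb2, Snai1, Snai2, Twist1 and Twist2) summed to 291 to 308 CPM in E20/p53 1 to 3 and 317 to 325 CPM in WT, and to 425 to 493 CPM in the sets where Sox2 and Tfap2a were low. In E20/p53 against E20, Twist1 (log2 -0.54, adjusted p = 0.0145), Snai2 (-0.37, adjusted p = 0.0264) and Zeb2 (-0.24, adjusted p = 0.0484) were lower with overlap, 3 of 6 beside 19.7% of all tested genes called lower, and Zeb1 was not called (-0.23, adjusted p = 0.221). Snai2 and Zeb2 were not called without E20/p53 1 to 3 (log2 -0.04 and -0.06, adjusted p = 0.58 and 0.595) and Twist1 was not called without E20/p53 4 to 6 (-0.12, adjusted p = 0.24). Without E20 1 to 3 none of these 3 was called (adjusted p = 0.126, 0.14 and 0.352), and without E20 4 to 6 Snai2 was not (adjusted p = 0.0662).

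Against WT the repressors went both ways. In p53 3 were higher and 1 lower, in E20 3 higher and 1 lower, and in E20/p53 2 higher and 2 lower, where 54.2%, 55.2% and 48.1% of all tested genes were called. Snai2 was higher in p53 (log2 1.10, adjusted p = 8.8e-05), E20 (1.45, adjusted p = 8.6e-07) and E20/p53 (1.08, adjusted p = 2.6e-05). Twist2 was lower in E20 (4.62 ± 1.05 against 29.2 ± 2.65 CPM, with log2 -2.67, adjusted p = 2.5e-09) and E20/p53 (-2.43, adjusted p = 1.0e-08), and Twist1 was lower in p53 (-0.95, adjusted p = 0.00268) and E20/p53 (-0.78, adjusted p = 0.00428).

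Markers of other cells moved with the same sets. Col1a2, a collagen gene of fibroblasts, was lowest in E20/p53 1 to 3 (1.58 ± 0.0573 CPM, SD, n = 3), with 1344 ± 65.4 CPM in WT. In the other sets its means lay between 3323 CPM in p53 and 8634 CPM in E20 4 to 6. Of 10 fibroblast markers, 9 were tested and 7 were lower in E20/p53 than in E20, where 19.7% of all tested genes were lower. Without E20/p53 1 to 3, 5 were lower and 2 higher, with a median log2 difference of -0.52 in place of -3.37, and the marker sum of E20/p53 4 to 6 (21815 to 23736 CPM) lay above both E20 sets (17766 to 19879 CPM). Without E20 4 to 6, 3 were lower. The 10 skeletal muscle markers summed to 6.96 CPM or less in WT and E20/p53 1 to 3, against 711 to 835 CPM in the E20 sets, 736 to 788 CPM in E20/p53 4 to 6 and 2132 to 2269 CPM in p53. The E20 sums came mainly from Des, at 533 to 662 CPM. Myod1 and Myog had 0 reads in WT and E20/p53 1 to 3 and did not exceed 0.467 CPM in E20. They stood at 8.34 to 9.95 CPM in E20/p53 4 to 6 and 113 to 157 CPM in p53. Myf5 was at 0 in WT and E20/p53 1 to 3 and at 45.2 to 90.2 CPM in E20. The 5 endothelial and 5 leukocyte markers did not exceed 4.73 and 22.9 CPM in sum in any library. The part of these cells in the differences of the 10 factors was not tested.

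**Figure D5:**
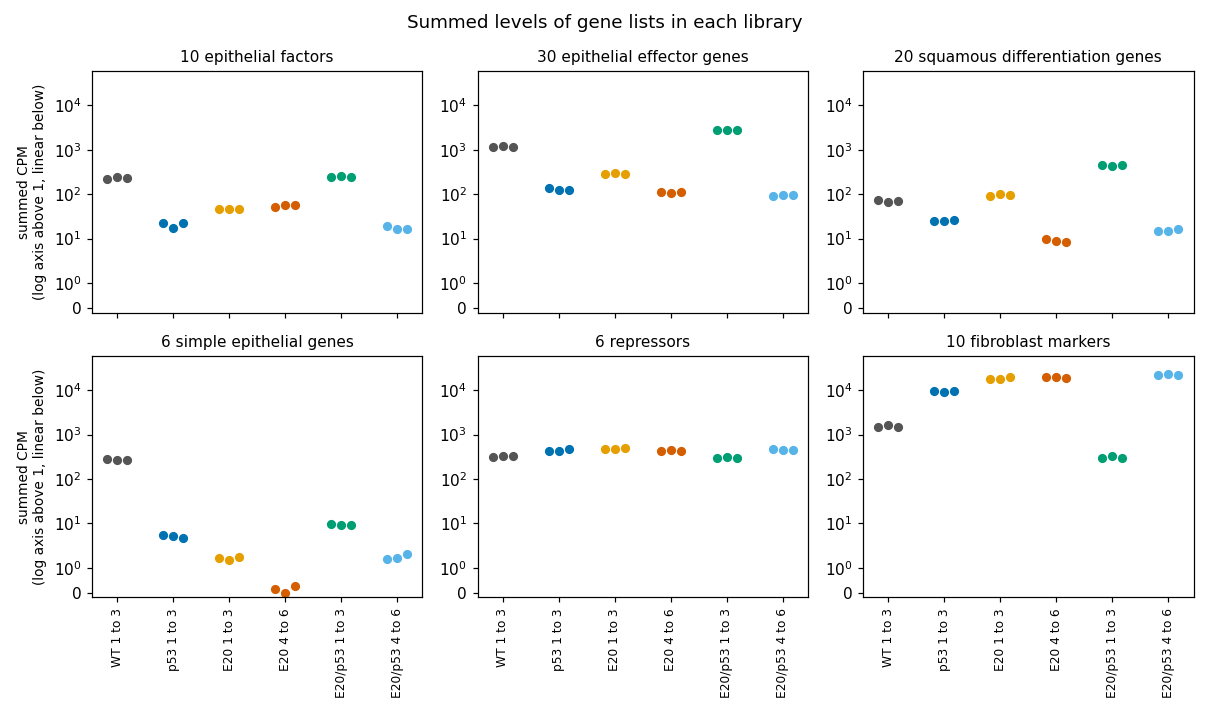
Summed CPM of 6 gene lists in each library (log axis above 1, linear below), in 6 sets of 3 libraries. The 10 factors and the effector and differentiation genes are high in E20/p53 1 to 3, where the fibroblast markers are lowest at 300 to 333 CPM.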

How the data were processed

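RNA from 18 mouse libraries was made into sequencing libraries with a stranded TruSeq mRNA kit, per the labels' protocols. Per the submitters' processing notes, bcl2fastq 1.8.4, Trimmomatic and featureCounts were used with the build mm10. As for the aligner, annotation, strand setting and scaling method, these were not given in the sources used here. A deposited table of 26143 genes is named for counts, but the values are log2 values made by the authors. Taking the smallest value of a column as 0 reads, 100% of the values were log2 of reads plus 1 over a scaled total to within 0.001 reads. Scaled totals lay at 0.939 to 1.12 of the summed reads, and CPM are reads on those totals.

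Genes were tested with at least 3 libraries at 0.635 CPM and 15 reads in sum, which left 15206. Group means were fitted in limma 3.58.1 (R 4.3.3) on those log2 values as deposited (mean-variance trend), over all 18 libraries (14 residual degrees of freedom), and p-values were adjusted by Benjamini-Hochberg over all genes of a comparison. The code was tested on simulated data, which held no sets of 3 within a group. Groups and replicate numbers are those of the labels. All columns were used. Positions and exon lengths are from GENCODE M21, on the same build, and overlapping genes other than Sox2ot were not analysed here.

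The 10 genes, the other gene lists and the sets of 3 libraries were chosen with earlier results of these data known. All 10 genes are named, and of each other list up to 4 genes by adjusted p in a comparison and 8 reference genes (Cdh1, Epcam, Krt5, Krt14, Zeb1, Zeb2, Snai2 and Col1a2), beside the markers used to check the labels and those at 0 reads. Some genes that this rule names are left out and are not reported here. Alternatives were other scalings, offsets and filters, voom, the compared groups alone, a replicate block, 6 set means, and each library or set left out. Same-numbered libraries of different groups had r of -0.06 to 0.07 for their deviations from group means. In E20 and E20/p53 these deviations hold the gap between the sets of 3, so r cannot show whether single libraries pair there. The numbers were not taken to pair the libraries.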

Additional observations from a re-analysis of the deposited data

How the results depend on the processing

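Of 48 differences (8 genes in 6 comparisons), 48 kept direction and call with median-of-ratios scaling, 46 with no filter, 44 with total reads scaling, 42 on log2 of CPM plus 1, 41 with the compared groups alone, 36 with voom, and 42 of 42 with a stricter filter, which dropped 1 gene. With 1 library left out 821 of 864 did, and with a set of 3 left out 155 of 192. With the 6 set means in place of 18 libraries (2 residual degrees of freedom), limma called 0 of the 8 genes in each comparison, with 1, 1, 1, 4, 4 and 2 under an unadjusted p of 0.05 in the order E20/p53 against E20, E20/p53 against p53, E20 against p53, and p53, E20 and E20/p53 against WT. It called 0, 0, 0, 1, 8 and 1 of all genes (971, 419, 623, 1620, 2067 and 1566 unadjusted), against 6487, 3925, 4709, 8237, 8395 and 7321 from 18 libraries. Voom with sample quality weights called 10838 genes in E20/p53 against E20, 11892 against p53 and 11373 against WT, and 8388 in E20 against p53. Without E20/p53 4 to 6, 5 of the 8 genes and 9890 genes were called in E20/p53 against E20, 9718 genes in E20/p53 against p53 and 7834 in E20 against p53, which without E20/p53 1 to 3 had 7798. With 1 p53 library left out, 2328 to 2466 genes were called in E20/p53 against p53 (up to 4688 without any 1 library) and 2 of the 8 in E20 against p53. Of the 8, 2 were called in E20 against p53 without E20 1 to 3 or on log2 of CPM plus 1, and 2 in E20/p53 against p53 with these groups alone. A replicate block was also fitted, though the numbers were not taken to pair the libraries. It gave 6 of the 8 in E20/p53 against E20 and 6400 genes in E20/p53 against p53, where it turned Klf5 (0.64). It added 8 calls of single genes over the 6 comparisons. Log2 differences also turned as follows. In E20/p53 against E20, Ovol1 turned with total reads scaling (0.07), voom (0.02) and without E20 replicate 3 (0.03), E20/p53 replicate 1 (0.08) or 6 (0.02; -0.16 to 0.08 without any 1 library), Ehf with voom (0.57) and without E20/p53 4 to 6 (0.53), Trp63 and Sox2 without E20 4 to 6 (-0.19 and -0.06) and without E20/p53 1 to 3 (-1.28 and -2.56), and Klf5 there (-0.00). In E20/p53 against p53, Klf5 turned with total reads scaling (0.02), voom (1.02) and without E20/p53 4 to 6 (1.14) or its replicate 4, 5 or 6 (0.13, 0.18 and 0.22; range -0.32 to 0.22), Ovol1 without p53 replicate 2 (-0.14; up to 0.52) and Sox2 without E20/p53 1 to 3 (-1.10). In E20 against p53, Ovol1 turned without p53 replicate 2 (-0.10; up to 0.56), Elf3 without p53 replicate 3 (-0.26; up to 0.76), and Elf3 and Sox2 without E20 1 to 3 (-0.47 and -0.94). Against WT, Trp63 turned in E20 without replicates 1 to 3 (-0.87) and in E20/p53 without replicates 1 to 3 (-1.03), and in E20/p53 Tfap2a and Sox2 turned with voom (0.25 and 0.24) and without replicates 4 to 6 (0.35 and 0.54). For settings other than libraries left out, the cause was not tested. Scaling by total reads moved the median of all genes by 0.11 in E20/p53 against E20, -0.14 in p53 against WT and -0.17 in E20 against WT. It moved the higher share of calls from 53.9% to 64.6% in the first and from 52.5% to 41.9% in the last. Depth limits Grhl2, Grhl3, Elf3 outside WT and Ovol1, which rest on few reads.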

Other observations

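The genes most like each factor were listed by Pearson's r of log2 values over the 18 libraries, which describes 6 sets more than 18 samples. For Tfap2c these were Gbp7 (r = 0.991), Sp100 (0.988) and Dtx3l (0.981), all of them genes that interferon induces. In means of each set, Gbp7 was highest in E20 4 to 6 (157 CPM), followed by E20 1 to 3 (33.7), p53 (21.8), E20/p53 4 to 6 (8.95), E20/p53 1 to 3 (7.89) and WT (0.76). Over the 6 set means r was 0.995, 0.997 and 0.987 for the 3 genes. For Sox2 they included Cdcp1 (0.984) and Sox2ot (0.981), the gene that surrounds it, which held 1.37 CPM in WT, 2.28 in E20/p53 1 to 3, 0.127 in E20 1 to 3 and 0 in the other sets.

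For Klf5 the genes were Eps8l2 (r = 0.991), Gdpd2 (0.984) and Map3k15 (0.983), for Trp63 Rnase4 (0.989), Atp9b (0.975) and Avpi1 (0.965), and for Tfap2a Tom1l2 (0.979), Zcwpw1 (0.972) and Nipal3 (0.970). Ehf was most like Kdsr (0.977), Ccpg1 (0.975) and Tmem205 (0.968), and Elf3 most like Chdh (0.972), Crtc3 (0.967) and Taz (0.965). Ovol1 had no close match, with r of 0.741 for Zfp62, 0.732 for Sptbn1 and 0.722 for Fbxl12os.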
